A study of Mus musculus with 7 samples.

Results

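The p53 and Ink4a-Arf genes are a set of 10 genes that act on the cell cycle and on cell survival, and all 10 of them were found by symbol among the 29267 genes of the expression tables. They comprise Trp53 (which encodes p53), its inhibitor Mdm2, the cyclin-dependent kinase inhibitor genes Cdkn1a, Cdkn2a, Cdkn2b and Cdkn2c, and 4 further genes that p53 is known to activate, Ccng1, Bax, Bbc3 and Sesn1. The rule that chose them names genes and uses no measured level, although the set was chosen with earlier results of these data known.

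p53 is a transcription factor that is held low by the ubiquitin ligase Mdm2 and is stabilised by DNA damage or by oncogene activity, after which it activates Cdkn1a and other genes. The Cdkn2a locus encodes 2 proteins from separate first exons read in different frames, p16Ink4a, which inhibits Cdk4 and Cdk6, and p19Arf, which binds Mdm2 and so spares p53. Both arms are known barriers to the reprogramming of fibroblasts into induced pluripotent stem cells, and the Ink4a-Arf locus is known to be silent in embryonic stem cells and to become active in cultured fibroblasts. p53 is regulated mostly at the protein level, and only RNA was measured.

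RNA-Seq was carried out on 7 libraries, 1 per condition. Mouse embryonic fibroblasts (MEFs) from OG2 embryos, which carry an egfp transgene under an Oct4 promoter that lacks the proximal enhancer, received Oct4, Sox2, Klf4 and c-Myc by retrovirus. They were reprogrammed in mES medium, which contains serum, LIF and vitamin C, or in serum-free 5C medium, which contains N2, bFGF, LIF, vitamin C and β-mercaptoethanol, and were sorted by FACS into Oct4GFP+ and Oct4GFP- cells for each medium (named mES- and 5C-, passage 0). The 5C-Oct4GFP+ (naive) cells were 5C-Oct4GFP+ cells moved to medium with LIF and 2 kinase inhibitors, and the 5C-Oct4GFP+ (primed) cells were the same cells moved to primed medium, both labelled with 20 passages, although the study's text also describes such conversions of a few days. R1 ESCs-primed were embryonic stem cells of the line R1, not made by reprogramming and also labelled with 20 passages. They had been brought to the primed state on MEF feeder cells with bFGF and activin A, which CHIR99021 and IWR-1 then replaced for maintenance. The sorted libraries are therefore populations defined by a reporter, which the study took at the late stage of reprogramming. The primed converted cells no longer showed GFP.

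There were no replicates in any condition, so no difference below was tested between conditions. Every interval given is an exact 95% interval of the read counts, covers counting error only, and says nothing about how cultures vary. A gene was counted as higher or lower when log2(TPM + 1) differed by at least 2-fold between 2 libraries, among genes with at least 1 TPM in either of them, where TPM is the level of a gene scaled for length and depth. The share of all such genes that passed the same limit is given in brackets beside the counts. The libraries held between 6108252 and 11496615 expected counts, and the 10 members together took between 9438 and 16336 of them.

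The regulatory sequence around the start sites was examined first, because 2 features of the set can be seen in it. All 10 members had at least 1 window of 300 bases (250 before and 50 after a RefSeq start, GRCm38.p6), 16 windows in all. The 10-base p53 half-site, a sequence that reads the same on both strands, was found without mismatch in 6 of the 16 windows, those of Trp53, Mdm2, Cdkn1a (the upstream start), Ccng1, Bax and Sesn1 (1 of its 2 starts). It was present in 8.36% of the 32851 windows examined, which leave out 1 chromosome that holds no member. No window of Cdkn2a, Cdkn2b, Cdkn2c or Bbc3 held these letters. A match is a description of the sequence and not evidence of binding. The half-sites outside the Cdkn1a and Ccng1 windows, with 10 bases on each side and the half-site in capitals, were as follows.
Trp53 half-site (chr11:69580284-69580293, + strand): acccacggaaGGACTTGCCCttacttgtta
Mdm2 half-site (chr10:117710935-117710944, - strand): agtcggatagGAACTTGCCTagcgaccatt
Bax half-site (chr7:45467090-45467099, - strand): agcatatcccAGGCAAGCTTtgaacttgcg
Sesn1 half-site (chr10:41887266-41887275, + strand): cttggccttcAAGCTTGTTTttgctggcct

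A pair of directly adjoining half-sites, with at most 1 of the 20 bases outside the consensus and with the central C and G of each kept, was found in the Cdkn1a and Ccng1 windows. This definition was chosen after the Cdkn1a sequence was seen. It matched in 22 of the 32851 windows (0.067%), 2 of which were members. The Cdkn1a pair lay 51 to 32 bases before the upstream start and the Ccng1 pair 195 to 176 bases before its start, both in capitals here. The Cdkn1a window also held a half-site without mismatch outside its pair, at -73 to -64 from the upstream start, left in lower case.
Cdkn1a upstream window (chr17:29090729-29091028, + strand): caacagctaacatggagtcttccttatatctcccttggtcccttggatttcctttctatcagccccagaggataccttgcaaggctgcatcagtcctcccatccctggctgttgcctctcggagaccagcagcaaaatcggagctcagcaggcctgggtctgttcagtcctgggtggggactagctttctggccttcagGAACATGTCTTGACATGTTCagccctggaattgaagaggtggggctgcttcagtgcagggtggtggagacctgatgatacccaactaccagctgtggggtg
Ccng1 window (chr11:40755237-40755536, - strand): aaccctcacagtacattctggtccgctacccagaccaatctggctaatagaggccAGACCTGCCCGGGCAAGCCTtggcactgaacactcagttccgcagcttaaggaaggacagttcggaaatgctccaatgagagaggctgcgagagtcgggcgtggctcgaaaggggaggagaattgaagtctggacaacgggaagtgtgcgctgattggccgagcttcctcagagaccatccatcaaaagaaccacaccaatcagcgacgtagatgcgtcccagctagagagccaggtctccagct

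The other feature is the pair of Cdkn2a promoters on chromosome 4, which lies 11645 bases from Cdkn2b. The p19Arf window held 45 CpG dinucleotides, more than 98.1% of the windows examined, with an observed over expected ratio of 1.04. The p16Ink4a window, before the first exon that lies further inside the gene, held 12, with a ratio of 0.44, against a median of 0.38 over the windows examined. CpGs are in capitals.
Cdkn2a p19Arf window (chr4:89294570-89294869, - strand): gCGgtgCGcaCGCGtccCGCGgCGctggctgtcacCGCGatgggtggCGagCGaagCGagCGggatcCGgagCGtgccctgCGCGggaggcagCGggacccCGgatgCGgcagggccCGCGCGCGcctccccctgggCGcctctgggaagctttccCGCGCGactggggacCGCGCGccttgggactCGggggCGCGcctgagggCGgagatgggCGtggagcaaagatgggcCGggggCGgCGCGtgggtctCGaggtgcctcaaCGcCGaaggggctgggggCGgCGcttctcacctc
Cdkn2a p16Ink4a window (chr4:89282143-89282442, - strand): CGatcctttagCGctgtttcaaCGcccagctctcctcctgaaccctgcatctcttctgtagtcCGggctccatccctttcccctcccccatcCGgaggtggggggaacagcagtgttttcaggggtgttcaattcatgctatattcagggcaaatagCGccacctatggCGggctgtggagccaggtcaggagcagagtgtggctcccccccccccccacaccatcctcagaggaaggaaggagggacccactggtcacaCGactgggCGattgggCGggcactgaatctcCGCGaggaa

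The levels of all members are plotted by library. Cdkn2c had the widest range of the set, 39.5-fold between its highest and its lowest library, which held 5 reads, followed by Cdkn2a with 19.5-fold, Cdkn2b with 8.72-fold and Cdkn1a with 8.12-fold. The other 6 members ranged between 1.94-fold (Ccng1) and 3.41-fold (Sesn1). The median range over the 11020 genes with at least 1 TPM in every library was 2.63-fold, and the range of Cdkn2a exceeded that of 95.4% of these genes.

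**Figure D1:**
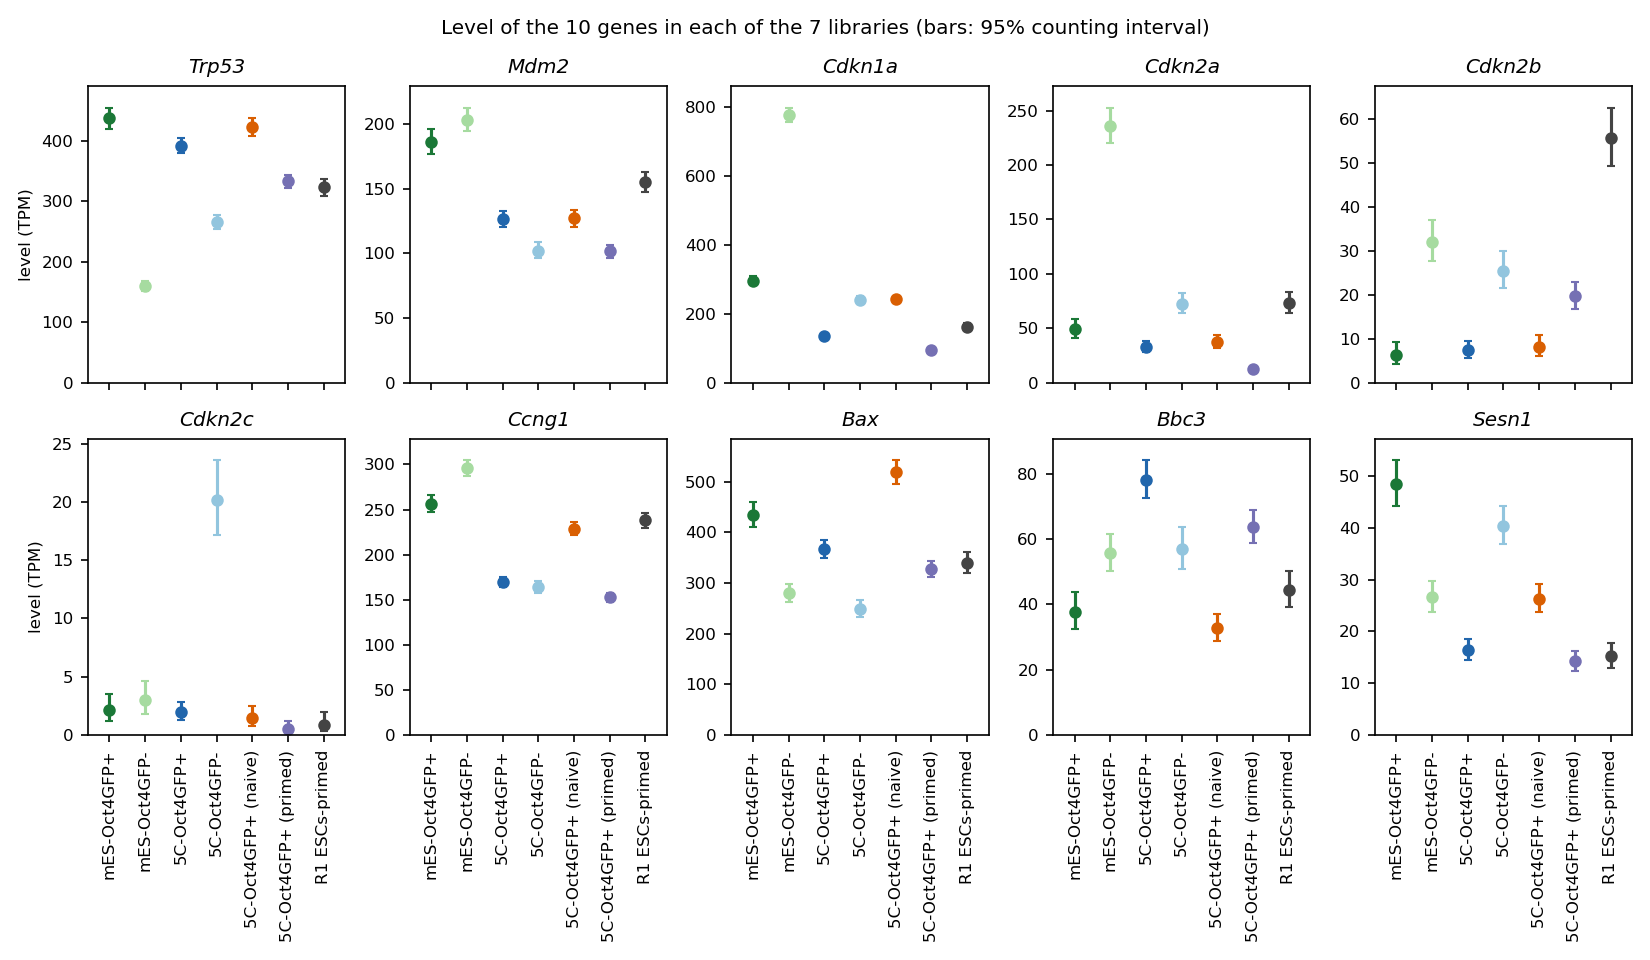
Level of each of the 10 genes (TPM, linear axis from 0, a separate scale for each gene) in the 7 libraries, each point being 1 library and each bar its exact 95% Poisson interval. The mES-Oct4GFP- library is lowest for Trp53 at 160 TPM and highest for Cdkn1a at 778 TPM and Cdkn2a at 236 TPM, and Cdkn2c stands at 20.2 TPM in 5C-Oct4GFP- cells against at most 2.99 TPM elsewhere.

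Trp53 was well expressed everywhere, above at least 94.4% of detected genes in each library. Its level was 437 TPM in Oct4GFP+ and 160 in Oct4GFP- cells of mES medium, 392 and 265 in those of 5C medium, 423 in the naive and 333 in the primed converted cells, and 323 in R1 ESCs-primed. Both Oct4GFP- libraries were below all 5 pluripotent libraries. The difference was 2.74-fold in mES medium (interval 2.56 to 2.93) and 1.48-fold in 5C medium (1.40 to 1.56), and only the first reached 2-fold. Between mES-Oct4GFP+ and 5C-Oct4GFP+ (naive) cells, and between the primed libraries, the interval of the ratio included 1.

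Mdm2, both an inhibitor and a known target of p53, did not follow Trp53. It stood at 187 TPM in Oct4GFP+ and 204 in Oct4GFP- cells of mES medium, 126 and 102 in those of 5C medium, 127 in the naive and 102 in the primed converted cells, and 155 in R1 ESCs-primed. It was highest where Trp53 was lowest. The gap between mES-Oct4GFP- and 5C-Oct4GFP- cells was 1.99-fold (1.85 to 2.15), just under the limit, and every other comparison made was smaller. Mdm4, which also binds and inhibits p53, was 258 TPM in Oct4GFP+ and 168 in Oct4GFP- cells of mES medium, 262 and 118 in those of 5C medium, 158 in the naive and 52.1 in the primed converted cells, and 58.7 in R1 ESCs-primed. Its difference between 5C-Oct4GFP+ (primed) and 5C-Oct4GFP+ cells was -2.31 on the log2(TPM + 1) scale.

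Cdkn2a was at least 2-fold higher in the Oct4GFP- cells of both media. It stood at 49.0 TPM in Oct4GFP+ and 236 in Oct4GFP- cells of mES medium, 32.8 and 72.4 in those of 5C medium, 37.4 in the naive and 12.1 in the primed converted cells, and 73.5 in R1 ESCs-primed, from 62 to 837 reads. The mES-Oct4GFP- library was 4.82-fold above mES-Oct4GFP+ (4.01 to 5.83) and 3.26-fold above 5C-Oct4GFP- (2.83 to 3.77). In 5C medium the Oct4GFP- cells were 2.21-fold above the Oct4GFP+ cells (1.80 to 2.72), a difference of -1.12 in log2(TPM + 1) for Oct4GFP+ against Oct4GFP- that became -0.97, inside the limit, when TPM were rescaled by median ratios.

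After conversion to the primed state Cdkn2a was 2.71-fold lower than in 5C-Oct4GFP+ cells (2.01 to 3.70) and 6.08-fold lower than in R1 ESCs-primed (4.58 to 8.19). Only 0.295% of the genes tested had a lower value in the last comparison. The naive converted cells and 5C-Oct4GFP+ cells did not differ beyond counting error, with a ratio of 1.14 (0.90 to 1.44). Cdkn2a RNA was detected in all 7 libraries, the Oct4GFP+ ones included.

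The deposited tables also allow Cdkn2a to be divided between its 2 transcripts, since the gene length that RSEM gives is the abundance-weighted mean of theirs. The transcript that begins at the p16Ink4a exon (chr4:89274471-89282192) has 852 bases in GENCODE M21 and the one that begins at the p19Arf exon (chr4:89274541-89294653) has 895. The p16Ink4a share was 41.0% in Oct4GFP- and 0% in Oct4GFP+ cells of mES medium, 28.5% and 20.3% in those of 5C medium, 2.70% in the naive and 14.1% in the primed converted cells, and 35.4% in R1 ESCs-primed. The libraries grown to the naive state or sorted as Oct4GFP+ in mES medium thus had almost all of their Cdkn2a RNA assigned to p19Arf.

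As levels, p16Ink4a was put at 96.8 TPM in mES-Oct4GFP-, between 20.6 and 26.0 TPM in 5C-Oct4GFP- and R1 ESCs-primed, and at 6.64 TPM or less in the other 4 libraries. p19Arf was present throughout, from 10.4 TPM in 5C-Oct4GFP+ (primed) to 139 TPM in mES-Oct4GFP-. These shares rest on RSEM's assignment of the reads that reach the first exons, whose number is not in the tables, so no interval can be given. The length of 895 is also the value in the mES-Oct4GFP+ table, while that of 852 comes from the annotation alone. Another length for the p16Ink4a transcript would scale all 7 shares by the same factor and leave their order as it is.

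**Figure D2:**
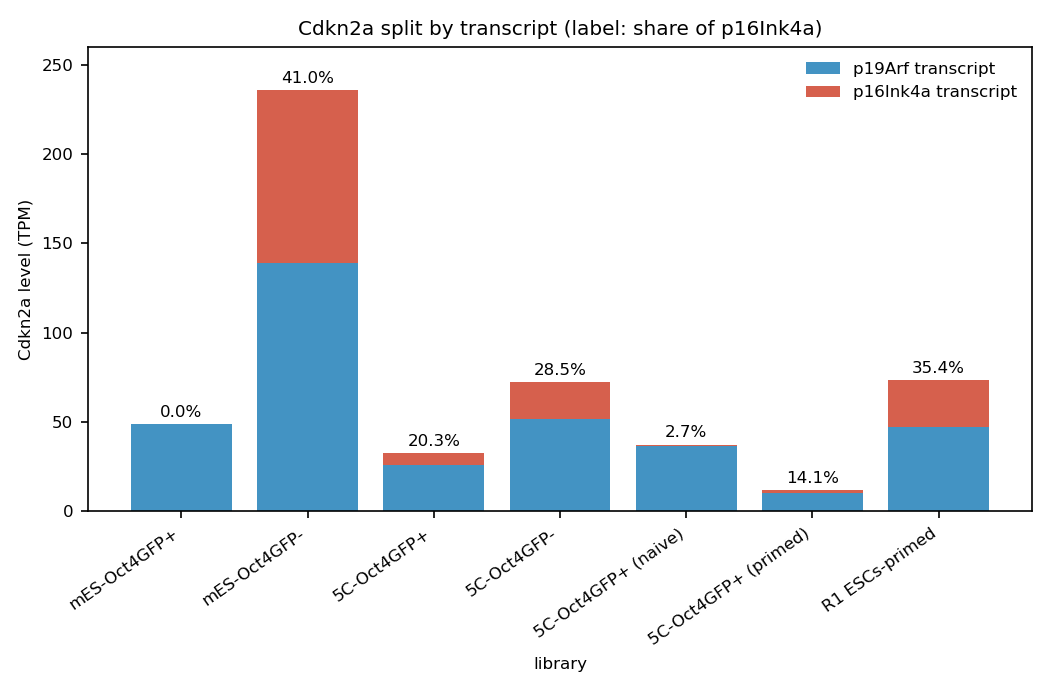
Cdkn2a level (TPM, axis from 0) in each of the 7 libraries, divided into the p19Arf transcript (blue) and the p16Ink4a transcript (red), with the p16Ink4a share above each bar. The red part reaches 41.0% in mES-Oct4GFP- cells and is 0% in mES-Oct4GFP+ cells. No error bars are drawn because the reads behind the split are not given.

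Cdkn2b, which encodes p15Ink4b, another inhibitor of Cdk4 and Cdk6, followed a partly different order from its neighbour. It stood at 6.37 TPM in Oct4GFP+ and 31.9 in Oct4GFP- cells of mES medium, 7.30 and 25.4 in those of 5C medium, 8.18 in the naive and 19.6 in the primed converted cells, and 55.5 in R1 ESCs-primed. The 3 Oct4GFP+ libraries outside the primed state were lowest, and their neighbouring ratios included 1. Oct4GFP- cells were 5.01-fold above Oct4GFP+ cells in mES medium (3.36 to 7.75) and 3.48-fold in 5C medium (2.53 to 4.84).

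Conversion to the primed state went with opposite differences in the 2 neighbouring genes. Cdkn2b was 2.69-fold higher in the primed converted cells than in the 5C-Oct4GFP+ cells they came from (1.97 to 3.72), whereas Cdkn2a was lower. Both were lower in 5C-Oct4GFP+ (primed) than in R1 ESCs-primed, Cdkn2b by 2.83-fold (2.32 to 3.45). The converted cells are labelled with 20 passages and the sorted cells with 0. In every comparison of converted with sorted cells, state, medium and time in culture therefore cannot be told apart.

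Cdkn2c, which encodes p18Ink4c, stood out in 1 library. Its level was 20.2 TPM in 5C-Oct4GFP- cells (160 reads), against 1.97 in the Oct4GFP+ cells of that medium, 2.14 and 2.99 in the Oct4GFP+ and Oct4GFP- cells of mES medium, 1.45 in the naive and 0.51 in the primed converted cells, and 0.89 in R1 ESCs-primed, where 5 to 27 reads were counted. The 5C-Oct4GFP- cells were 10.2-fold above 5C-Oct4GFP+ (6.78 to 16) and 6.75-fold above mES-Oct4GFP- (4.22 to 11.3). Among the other 6 libraries all neighbouring ratios included 1, while the primed converted cells were below 5C-Oct4GFP+ cells, at a ratio of 0.26 (0.078 to 0.68). The study's list of mesenchymal markers, taken from an earlier report, contains Cdkn2c. Cdkn2d, which encodes p19Ink4d, lay between 13.5 and 31.1 TPM and passed 2-fold in none of the 8 comparisons.

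Cdkn1a, which encodes p21 and is the best known target of p53, was highest where Trp53 RNA was lowest. It stood at 296 TPM in Oct4GFP+ and 778 in Oct4GFP- cells of mES medium, 135 and 241 in those of 5C medium, 242 in the naive and 95.9 in the primed converted cells, and 163 in R1 ESCs-primed. The mES-Oct4GFP- library was 2.63-fold above mES-Oct4GFP+ (2.49 to 2.77) and 3.23-fold above 5C-Oct4GFP- (3.07 to 3.41). Cells from 5C medium were lower in both fractions, by 2.20-fold among Oct4GFP+ cells (2.04 to 2.36). Within 5C medium the Oct4GFP- cells were 1.78-fold above the Oct4GFP+ cells (1.66 to 1.92), short of 2-fold.

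Ccng1, a target of p53 that encodes cyclin G1 and whose window holds the other pair of half-sites, moved far less. It stood at 256 TPM in Oct4GFP+ and 296 in Oct4GFP- cells of mES medium, 169 and 164 in those of 5C medium, 229 in the naive and 153 in the primed converted cells, and 238 in R1 ESCs-primed. It passed 2-fold in no comparison. The largest ratio was 1.80 (1.71 to 1.89), for mES-Oct4GFP- over 5C-Oct4GFP-. Cdkn1a, Ccng1 and Mdm2 were each highest in mES-Oct4GFP- cells and lowest in 5C-Oct4GFP+ (primed) cells, by 8.12-fold, 1.94-fold and 2.0-fold, although the lowest Mdm2 level was within counting error of that in 5C-Oct4GFP- cells. Levels of these genes share the same 7 libraries and so the same other differences between them.

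The 2 members that promote cell death differed from each other. Bax, which opens the mitochondrial outer membrane, stood at 434 TPM in Oct4GFP+ and 280 in Oct4GFP- cells of mES medium, 366 and 249 in those of 5C medium, 518 in the naive and 328 in the primed converted cells, and 340 in R1 ESCs-primed. Like Trp53 it was lowest in the Oct4GFP- libraries, by 1.55-fold in mES medium (1.42 to 1.69) and 1.47-fold in 5C medium (1.35 to 1.60), both under 2-fold.

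Bbc3, which encodes Puma, a BH3-only activator of Bax, stood at 37.7 TPM in Oct4GFP+ and 55.7 in Oct4GFP- cells of mES medium, 78.1 and 57.1 in those of 5C medium, 32.7 in the naive and 63.8 in the primed converted cells, and 44.5 in R1 ESCs-primed. It was highest in 5C-Oct4GFP+ cells, 2.07-fold above mES-Oct4GFP+ (1.75 to 2.46) and 2.39-fold above the naive cells made from them (2.07 to 2.77). The level of the naive converted cells and that of mES-Oct4GFP+ cells did not differ beyond counting error, at a ratio of 0.87 (0.71 to 1.06). The 5C-Oct4GFP- and mES-Oct4GFP- libraries were also within counting error, at 1.03 (0.88 to 1.20).

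Sesn1 encodes sestrin 1, which restrains mTORC1 signalling. It stood at 48.5 TPM in Oct4GFP+ and 26.7 in Oct4GFP- cells of mES medium, 16.5 and 40.4 in those of 5C medium, 26.3 in the naive and 14.2 in the primed converted cells, and 15.2 in R1 ESCs-primed. The reporter fractions stood in opposite order in the 2 media, with Oct4GFP+ cells 1.82-fold above Oct4GFP- cells in mES medium (1.57 to 2.10) and 2.45-fold below them in 5C medium (2.10 to 2.86). Between Oct4GFP+ cells the 5C library was 2.94-fold below the mES library (2.53 to 3.44). The study's list of naive markers, selected from its own RNA-Seq, which includes naive R1 ESCs not analysed here, contains Sesn1.

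Sesn1 too has 2 transcripts in the tables, of 2600 and 3809 bases in GENCODE M21, and their mix set 2 libraries apart. The longer transcript, which begins at chr10:41809935, took 39.5% of the Sesn1 level in mES-Oct4GFP+ and 44.3% in 5C-Oct4GFP+ (naive). In the other 5 libraries it took between 7.46% in 5C-Oct4GFP+ (primed) and 19.7% in 5C-Oct4GFP+. Its level was put at 19.1 and 11.7 TPM in the first 2 libraries and at 1.06 to 5.70 TPM in the others. As for Cdkn2a, this split rests on RSEM's assignment of reads, and no interval can be given. Both Sesn1 lengths come from the annotation alone, and other lengths would change the shares. The half-site shown above lies before the start of the shorter transcript. For Cdkn2c the same division rested on fewer than 30 reads in all libraries but 5C-Oct4GFP-, where the shorter transcript took 39.5%.

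Set against all genes, the reporter comparison in mES medium held 1 member at least 2-fold higher in Oct4GFP+ cells, Trp53, where 17.9% of 16294 genes were higher, and 3 lower, Cdkn1a, Cdkn2a and Cdkn2b, where 28.8% were lower. In 5C medium 0 of the 10 members were higher (8.45% of 15675 genes) and 4 were lower, Cdkn2a, Cdkn2b, Cdkn2c and Sesn1 (22.6%). With so many genes past 2-fold between the reporter fractions, counts of this size are not particular to the members. The median difference of the members was -0.28 in mES medium and -0.39 in 5C medium, beside -0.15 and -0.25 over all genes tested.

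Between media, 5C-Oct4GFP- against mES-Oct4GFP- cells held 1 member higher, Cdkn2c (9.68% of all genes), and 2 lower, Cdkn1a and Cdkn2a (10.1%). For 5C-Oct4GFP+ against mES-Oct4GFP+ cells 1 was higher, Bbc3 (13.7%), and 2 were lower, Cdkn1a and Sesn1 (13.5%). Cdkn1a was the only member lower by 2-fold in both fractions. The differences of Cdkn1a and Cdkn2a between the Oct4GFP- libraries were both -1.69, and 3.43% and 3.42% of the genes tested had lower values. The median over the members was -0.25 among Oct4GFP- cells and -0.40 among Oct4GFP+ cells, beside 0.03 and -0.06 over all genes.

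On conversion of 5C-Oct4GFP+ cells to the naive state 0 members were higher (10% of all genes) and 1 was lower, Bbc3 (17.5%). On conversion to the primed state 1 was higher, Cdkn2b (13.7%), and 1 was lower, Cdkn2a (16.1%). The converted naive cells differed from mES-Oct4GFP+ cells by 2-fold in none of the 10 members, where 2.49% of all genes were higher and 6.27% lower. The largest difference there was that of Sesn1, 1.84-fold lower in the naive converted cells (1.61 to 2.11). The converted primed cells had 0 members higher (2.3%) and 2 of 9 lower than R1 ESCs-primed, Cdkn2a and Cdkn2b (5.09%), the tenth, Cdkn2c, being under 1 TPM in both. Each of the 5C-Oct4GFP+ and mES-Oct4GFP+ libraries serves in several of these comparisons, which are thus not independent of one another.

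**Figure D3:**
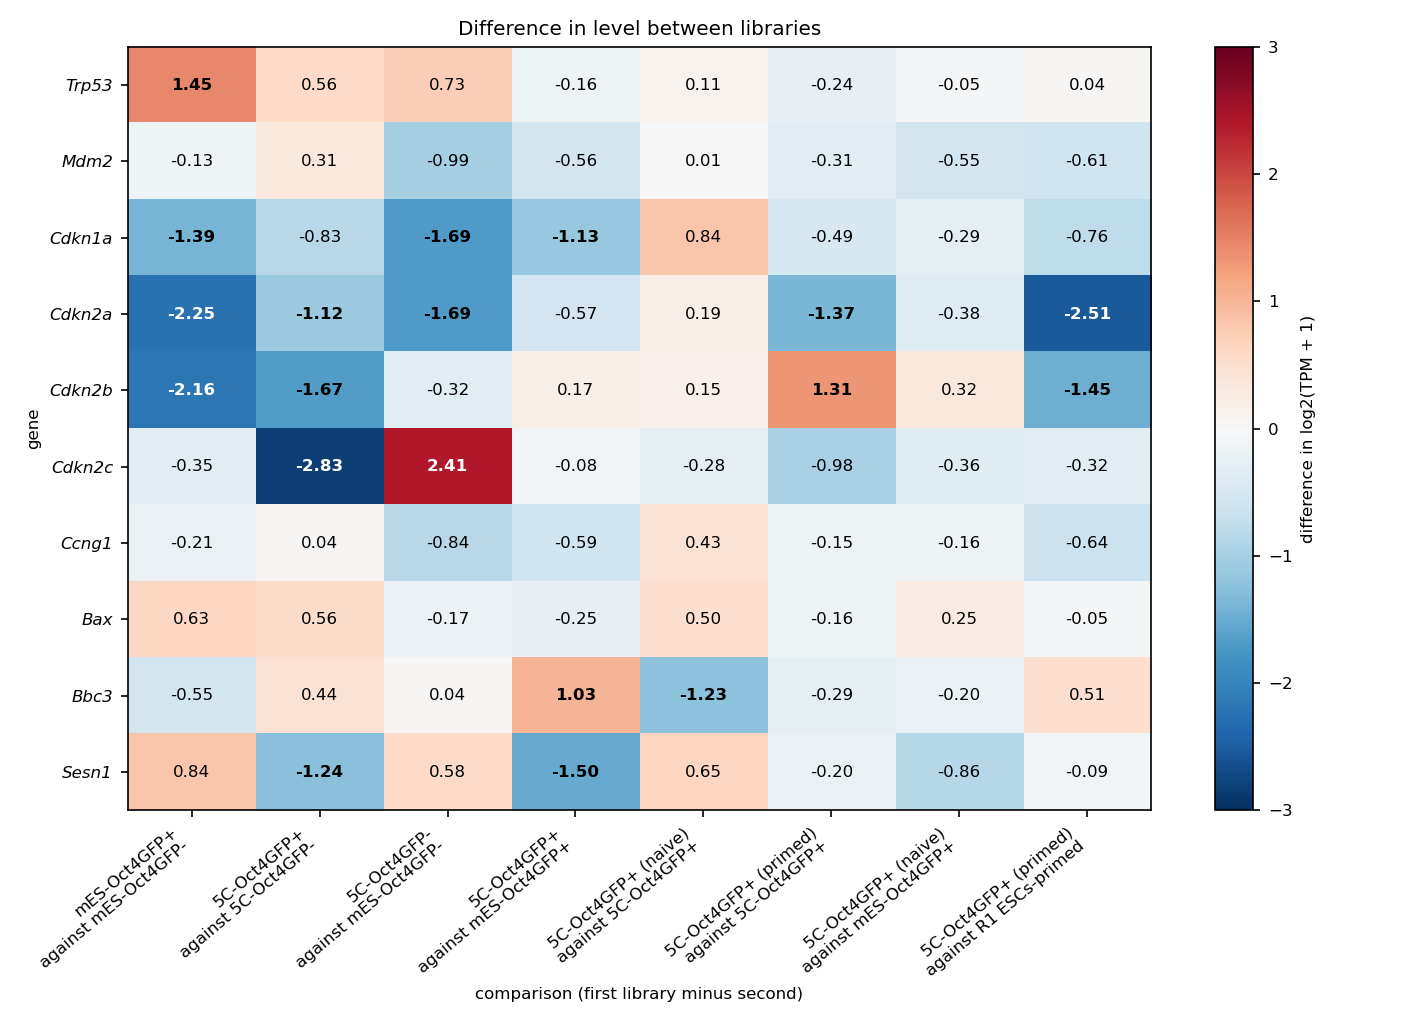
Difference in log2(TPM + 1), first library minus second, for the 10 genes (rows) in the 8 comparisons (columns), with red for higher in the first library and blue for lower, and bold for a difference of at least 2-fold. Cdkn2a is negative in 7 of the 8 columns, from -0.38 to -2.51, and 0.19 in the naive conversion.

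**Figure D4:**
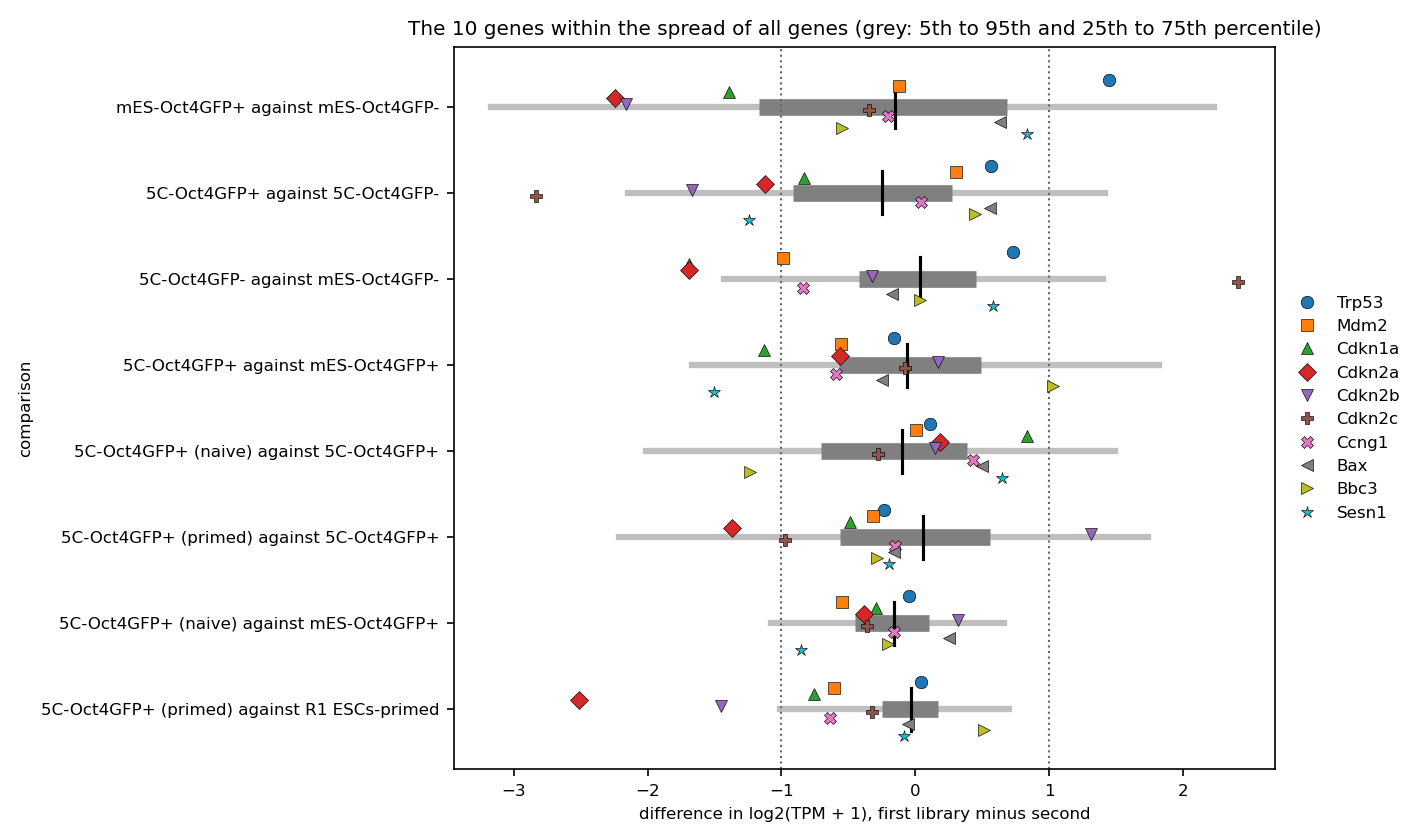
The same differences (x axis, log2(TPM + 1)) of the 10 genes, drawn as coloured marks, over the spread of all genes tested in each of the 8 comparisons, where the black line is the median, the dark bar the 25th to 75th and the light bar the 5th to 95th percentile, and the dotted lines mark 2-fold. Cdkn2a at -2.51 and Cdkn2b at -1.45 lie left of the light bar in the comparison of the primed libraries, whereas in mES medium every member lies within it.

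The marker genes of other cell types moved with some of these differences and against others. Fibroblast markers (12 genes) summed to 3493 TPM in mES-Oct4GFP- and 3572 in 5C-Oct4GFP-, and to between 801 and 1558 TPM in the other 5 libraries. Most of the Oct4GFP- sums came from Vim and Fn1, at 2209 and 668 TPM in mES-Oct4GFP- and 2468 and 831 in 5C-Oct4GFP-. The sums therefore say little about the other markers. Col1a1, Col1a2 and Col3a1 stood at 45.0, 43.4 and 71.7 TPM in 5C-Oct4GFP- and at 40.5, 41.8 and 71.3 in R1 ESCs-primed. Thy1 was higher in 5C-Oct4GFP- than in R1 ESCs-primed (53.3 against 10.95 TPM), and Twist1 was lower (14.0 against 23.8). Of the fibroblast markers, 11 of 12 were at least 2-fold lower in mES-Oct4GFP+ than in mES-Oct4GFP- cells (28.8% of all genes). In 5C medium 9 of the 11 tested were lower in Oct4GFP+ than in Oct4GFP- cells (22.6%). In the converted primed cells 8 of 12 were lower than in R1 ESCs-primed (5.09%), in the same direction as Cdkn2a and Cdkn2b. Between the Oct4GFP- libraries 8 of 12 were lower (10.1%) and 1 higher (9.68%) in 5C medium, again in the direction of Cdkn1a and Cdkn2a. On conversion to the primed state, in contrast, 9 of 12 were higher (13.7%) and 1 lower (16.1%), with a median of 1.24, in the direction of Cdkn2b and opposite to Cdkn2a. Col1a1 ranged from 1.5 to 160 TPM and Prrx1 from 0.09 to 87.9, while Twist2 was at 0 in mES-Oct4GFP+ and 5C-Oct4GFP+ (naive).

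Proliferation markers (8 genes) summed to 803 TPM in mES-Oct4GFP-, to 1849 in 5C-Oct4GFP- and to between 2391 and 2682 in the 5 pluripotent libraries. In mES medium 7 of the 8 were at least 2-fold higher in Oct4GFP+ cells (17.9% of all genes), but in 5C medium only 1 of the 8 was (8.45%). Between the Oct4GFP- libraries 6 of the 8 were higher in 5C medium than in mES medium (9.68%). The mES-Oct4GFP- library, highest for Cdkn1a and p16Ink4a, thus had the lowest proliferation sum. R1 ESCs-primed, highest for Cdkn2b at 55.5 TPM, had the highest proliferation sum, 2682 TPM. Whether the levels of the inhibitors and of the proliferation markers are linked was not tested. The fibroblast sum of mES-Oct4GFP-, mostly Vim and Fn1, was second highest. In 5C-Oct4GFP-, where that sum was highest, 8 of the 12 fibroblast markers were at least 2-fold lower than in mES-Oct4GFP- and 1 was higher. The part of cell mixture in the differences was not tested, and in bulk RNA fewer cells of a type and less RNA per cell cannot be told apart.

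The labels otherwise held for most markers. Pluripotency markers (10 genes) summed to 6925 TPM in mES-Oct4GFP+ and 10016 in 5C-Oct4GFP+, against 3855 and 2056 in the Oct4GFP- libraries, of which Pou5f1 alone, one of the retroviral factors, made up 3640 and 1534 TPM. The sum was 7274 TPM in the naive converted cells, and 3264 and 3229 in the primed libraries, below mES-Oct4GFP-. In Oct4GFP+ against Oct4GFP- cells of mES medium 8 of the 10 were higher (17.9%) and 2 lower (28.8%), Pou5f1 and Lin28a (24.2 against 75.9 TPM). In 5C medium 8 were higher (8.45%) and 0 lower (22.6%). In the Oct4GFP- cells of 5C medium 5 of the 10 were at least 2-fold higher than in those of mES medium (9.68% of all genes) and 1, Pou5f1, was lower (10.1%), with a median of 1.42. Nanog, for example, stood at 119.5 TPM in 5C-Oct4GFP- and 17.1 in mES-Oct4GFP-, in the same pair of libraries that differed in Cdkn1a and Cdkn2a. Primed markers (7 genes) summed to 2019 and 1817 TPM in the primed libraries and to at most 600 TPM elsewhere, and naive markers (7 genes) to 18.4 and 21.4 TPM there and to at least 1080 TPM elsewhere. That naive sum was high in the Oct4GFP- libraries through Klf4, also a retroviral factor, at 1613 and 1512 TPM. Macrophage markers (5 genes) summed to at most 57.8 TPM, mostly Cd68, with Adgre1 at or below 0.14 TPM. Endothelial markers (4 genes) summed to at most 43.1 TPM.

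The lists that follow were fixed by known function, with earlier results of these data in view. Among 17 regulators of p53, 5 of the 16 tested were at least 2-fold higher (17.9% of all genes) and 1 lower (28.8%) in mES-Oct4GFP+ against mES-Oct4GFP- cells, with a median difference of 0.41. Chek1 and Chek2, kinases of the DNA damage checkpoints, stood at 74.7 and 77.5 TPM in mES-Oct4GFP+ and at 14.7 and 15.4 TPM in mES-Oct4GFP-. In 5C medium 3 of 17 were higher (8.45%) and 2 lower (22.6%), with a median of 0.23. Sirt1, a deacetylase of p53, was 88.3 TPM in 5C-Oct4GFP+ and 27.5 in 5C-Oct4GFP-, and Trp73, the p53 relative, 14.9 and 1.90. On conversion to the primed state 3 of 16 were lower, Mdm4, Sirt1 and Trp73 (16.1%), and 0 higher (13.7%), and on conversion to the naive state 1 of 16 was lower, Trp73 (17.5%). Between 5C and mES medium 1 was higher in each fraction, Chek1 among Oct4GFP- cells (9.68%) and Trp73 among Oct4GFP+ cells (13.7%), and 0 were lower (10.1% and 13.5%). The naive converted cells against mES-Oct4GFP+ (2.49% higher and 6.27% lower) and the primed converted cells against R1 ESCs-primed (2.3% and 5.09%) had 0 of 16 past 2-fold.

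Of 26 other p53 targets matched (Rps27l was not matched), 3 were higher (17.9% of all genes) and 6 lower (28.8%) in the Oct4GFP+ cells of mES medium, with a median of -0.23. Perp, a membrane protein of desmosomes, stood at 12.0 TPM in mES-Oct4GFP+ and 476 in mES-Oct4GFP-, the death receptor gene Fas at 1.28 and 9.47, and Pmaip1, which encodes Noxa, at 3.97 and 21.2. In 5C medium 1 was higher (8.45%) and 2 lower (22.6%), with a median of 0.20. These 2 were Dram1 and Fas, and the one higher was Sesn2, a sestrin gene like Sesn1, at 105 TPM in 5C-Oct4GFP+ and 44.1 in 5C-Oct4GFP-, opposite to Sesn1.

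In 5C-Oct4GFP+ against mES-Oct4GFP+ cells 4 of 25 targets were higher, near the share of all genes (13.7%), and 0 were lower (13.5%), with a median of -0.03 beside -0.06 over all genes. Those higher included Perp (71.4 against 12.0 TPM), the growth arrest gene Gadd45a (98.0 against 24.1) and Pmaip1 (17.2 against 3.97). In the naive converted cells 8 of 25 were lower than in 5C-Oct4GFP+ cells (17.5%) and 1 higher (10%), with Perp at 6.25, Gadd45a at 18.1 and Pmaip1 at 3.04 TPM, and the median was -0.37 beside -0.10 over all genes. In the primed converted cells 6 of 24 were lower (16.1%) and 0 higher (13.7%), with a median of -0.63 beside 0.06, and Gdf15, a secreted factor, stood at 0.61 TPM against 25.5. Both comparisons use the same 5C-Oct4GFP+ library. Between the Oct4GFP- libraries 2 of 26 were higher (9.68%) and 4 lower (10.1%) in 5C medium, among the latter Perp at 104 against 476 TPM and Plk2, a polo-like kinase, at 59.3 against 154. The naive converted cells against mES-Oct4GFP+ had 1 of 25 lower, Rrm2b (6.27%), and the primed converted cells against R1 ESCs-primed 1 of 24 lower (5.09%), Pmaip1, at 2.35 against 28.2 TPM.

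Of 13 factors known to repress or activate the Ink4a-Arf locus, 4 were higher (17.9% of all genes) and 6 lower (28.8%) in mES-Oct4GFP+ against mES-Oct4GFP- cells, and 3 were higher (8.45%) and 5 lower (22.6%) in 5C medium, with medians of -0.91 and -0.30. Among the lower ones were Id1, which opposes Ets factors, at 4.19 against 414 TPM in mES medium, Tbx2, a repressor of the locus, at 1.27 against 26.7, and Ets1, an activator of p16Ink4a, at 1.00 against 12.4 in 5C medium. Tbx3, a repressor of p19Arf that also marks the naive state, stood higher in Oct4GFP+ cells, at 74.6 against 6.43 TPM in mES and 48.0 against 4.89 in 5C medium. Bmi1, the Polycomb repressor of the locus, stood at 39.9 TPM in Oct4GFP+ and 31.2 in Oct4GFP- cells of mES medium, 8.99 and 55.2 in those of 5C medium, 22.9 in the naive and 11.6 in the primed converted cells, and 14.3 in R1 ESCs-primed. Its lowest level was thus in 5C-Oct4GFP+ cells, and any link to Cdkn2a was not tested. Between the Oct4GFP- libraries 1 of the 13 was lower in 5C medium, Ets2 (10.1%), and 0 higher (9.68%). In 5C-Oct4GFP+ against mES-Oct4GFP+ cells 2 were higher (13.7%) and 2 lower (13.5%), on conversion to the naive state also 2 higher (10%) and 2 lower (17.5%), and on conversion to the primed state 1 of 12 was higher (13.7%) and 2 lower (16.1%). The primed converted cells had 1 of 12 lower than R1 ESCs-primed, Tbx2 (5.09%), and the naive converted cells differed from mES-Oct4GFP+ in 0 of 12 (2.49% higher and 6.27% lower).

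Among 17 genes of other CDK inhibitors and the Rb pathway, 3 were higher (17.9% of all genes) and 7 lower (28.8%) in mES-Oct4GFP+ against mES-Oct4GFP- cells, and 0 were higher (8.45%) and 6 lower (22.6%) in 5C medium, with medians of -0.05 and -0.55. Ccnd2, which encodes cyclin D2, stood at 1.07 against 326 TPM in mES medium and 9.96 against 132 in 5C medium. Cdkn1c, which encodes p57Kip2, stood at 3.30 and 73.2 TPM in mES-Oct4GFP+ and mES-Oct4GFP-, 12.9 and 68.2 in 5C-Oct4GFP+ and 5C-Oct4GFP-, 4.07 in the naive and 13.2 in the primed converted cells and 58.8 in R1 ESCs-primed. Its order of libraries resembled that of Cdkn2b, with the primed R1 cells and both Oct4GFP- libraries at the top. Rb1 itself was 22.2 TPM in mES-Oct4GFP+, 125 in mES-Oct4GFP- and 46.2 in 5C-Oct4GFP-. Cdkn1b, which encodes p27Kip1, stood between 20.5 TPM in mES-Oct4GFP+ and 61.7 in 5C-Oct4GFP-. Both comparisons between media held 2 of the 17 genes higher and 2 lower (9.68% and 10.1% among Oct4GFP- cells, 13.7% and 13.5% among Oct4GFP+ cells). On conversion to the naive state 1 was higher (10%) and 4 lower (17.5%), and on conversion to the primed state 1 was higher (13.7%) and 2 lower (16.1%). The naive converted cells had 1 higher (2.49%) and 1 lower (6.27%) than mES-Oct4GFP+ cells, and the primed converted cells had 1 lower than R1 ESCs-primed, Cdkn1c (5.09%).

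Among 18 genes of the BCL-2 family and caspases, 1 of the 17 tested was higher (17.9% of all genes) and 6 lower (28.8%) in mES-Oct4GFP+ against mES-Oct4GFP- cells, and 1 of 18 was higher (8.45%) and 4 lower (22.6%) in 5C medium, with a median of -0.28 in both. Casp8, the caspase of death receptors, stood at 1.63 against 29.5 TPM in mES and 6.09 against 23.6 in 5C medium, and the survival gene Bcl2 at 0.10 against 6.14 and 0.27 against 4.22. In 5C-Oct4GFP+ against mES-Oct4GFP+ cells 4 of 17 were higher (13.7%) and 1 lower (13.5%). Bmf, a BH3-only gene like Bbc3, stood at 22.9 TPM in 5C-Oct4GFP+, 8.82 in mES-Oct4GFP+ and 2.83 in the naive converted cells, and like Bbc3 it was highest of these in 5C-Oct4GFP+. In the naive converted cells 4 of 17 were lower than in 5C-Oct4GFP+ cells (17.5%) and 0 higher (10%), and 3 of 16 were lower than in mES-Oct4GFP+ cells (6.27%). On conversion to the primed state 1 of 18 was higher, Bcl2 (13.7%), and 1 lower, Mcl1 (16.1%), and 0 of 17 passed 2-fold against R1 ESCs-primed (2.3% higher and 5.09% lower).

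The genes most like single members were sought among the 11804 genes that reached 10 TPM in any library, by the root mean square difference of mean-centred log2(TPM + 1) over the 7 libraries. For Cdkn2a they were Gpx3 (0.24), Cdh6 (0.43) and 5730409E04Rik (0.47), beside a median of 1.27 over all genes compared. Gpx3, a secreted glutathione peroxidase, stood at 31.8, 129, 17.4, 30.0, 17.7, 4.49 and 29.6 TPM with the libraries in the order used above. For Cdkn2c they were Kctd14 (0.27), Kank4 (0.30) and Celrr (0.33), all highest in 5C-Oct4GFP- cells at 16.4, 12.0 and 12.4 TPM, beside a median of 1.23. These are descriptions over 7 libraries that differ in many other genes.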

How the data were processed

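Total RNA from 7 cell populations, 1 library each, had been made into TruSeq libraries, sequenced and processed with Bowtie and RSEM on mm10, per the labels and the submitters' processing notes. The versions are not given in the sources used here. The authors deposited, per gene, an expected count, TPM and FPKM values, and gene lengths. The deposited expected counts (6108252 to 11496615 per library) were rounded for exact counting intervals (Clopper-Pearson for ratios, Poisson for levels). The deposited TPM gave the levels, and the deposited FPKM served as an alternative. Symbols were matched to Ensembl identifiers, and coordinates and transcript lengths came from GENCODE M21, whose lengths equalled the tables' for 71.1% of 14457 genes with a single transcript. Python 3.11.15, NumPy 2.4.6, pandas 2.3.3 and SciPy 1.17.1 were used, and the calculations were tested on simulated data.

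Differences were log2(TPM + 1) with a limit of 2-fold among genes with at least 1 TPM in either library. The members, gene lists and comparisons were chosen with earlier results of these data known. Named were all members, Mdm4, Cdkn1b, Cdkn1c, Cdkn2d and Bmi1, of each list at most the 3 largest differences past 2-fold per comparison, and the 3 most similar genes of Cdkn2a, Cdkn1a and Cdkn2c, of which those of Cdkn1a are not reported here. Levels named for such a gene in further libraries follow from its naming. MEF and naive R1 libraries, and protein sequences, were not analysed here.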

Additional observations from a re-analysis of the deposited data

Results flagged for a closer look

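Some members differed in opposite directions under the same contrast, with both counting intervals on opposite sides of no difference. Whether the 2 differences themselves differ was not tested, since each rests on 1 library per condition. For Oct4GFP+ against Oct4GFP- cells, the difference in log2(TPM + 1) of Sesn1 was 0.84 in mES medium and -1.24 in 5C medium, that of Bbc3 was -0.55 and 0.44, and that of Mdm2 was -0.13 and 0.31. With FPKM in place of TPM the Mdm2 difference in mES medium was -0.002, so that its opposite direction was not seen on that scale. For 5C against mES medium, the difference of Sesn1 was 0.58 among Oct4GFP- cells and -1.50 among Oct4GFP+ cells, and that of Trp53 was 0.73 and -0.16. The Sesn1 differences past 2-fold both involve the 5C-Oct4GFP+ library, in which it stood at 16.5 TPM.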

How the results depend on the processing

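Of the 240 member differences recomputed with a pseudocount of 0.1, with TPM rescaled by median ratios or with FPKM, 3 changed sign, all of them at most 0.05 in size at first. Median-ratio rescaling took Cdkn2a below 2-fold in 5C-Oct4GFP+ against 5C-Oct4GFP- cells (-0.97) and brought Mdm2 past it in 5C-Oct4GFP- against mES-Oct4GFP- cells (-1.03). The same rescaling (-1.01) and the pseudocount of 0.1 (-1.76) brought Cdkn2c past it in 5C-Oct4GFP+ (primed) against 5C-Oct4GFP+ cells, where it had 5 and 27 reads. Rescaling moved the median of all genes in 5C-Oct4GFP+ against 5C-Oct4GFP- cells from -0.25 to -0.11 and in 5C-Oct4GFP+ (naive) against mES-Oct4GFP+ cells from -0.16 to -0.04. With 1.5-fold in place of 2-fold, the members past the limit in either direction became 6 in 5C-Oct4GFP- against mES-Oct4GFP- cells (39.0% of all genes) and 3 in the naive conversion (46.9%). They became 1 in 5C-Oct4GFP+ (naive) against mES-Oct4GFP+ cells (24.3%) and 5 in 5C-Oct4GFP+ (primed) against R1 ESCs-primed (17.8%). For Oct4GFP+ against Oct4GFP- cells they became 6 in mES medium (65.5%) and 5 in 5C medium (50.2%). In 5C-Oct4GFP+ against mES-Oct4GFP+ cells they became 4 (46.5%), and in the primed conversion 3 (48.5%). A minimum of 5 TPM or none changed no count of members. Effective lengths in place of lengths changed no p16Ink4a share by more than 1 percentage point. They are averaged over the same estimated abundances, so this cannot test the split. Without replicates no library could be left out, and no paired analysis was possible because each condition has 1 library. The comparison of INK4 protein sequences was not run. Depth limits Cdkn2c most.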
